A study of Saccharomyces cerevisiae with 6 samples.

Results

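The 50 genes described here encode the DNA replication machinery of budding yeast, Saccharomyces cerevisiae, and ribonucleotide reductase, the enzyme that makes its building blocks. They were taken by name from the 5795 protein-coding genes of the deposited table, and all 50 were found. By role they comprise 6 genes of the origin recognition complex, 11 of helicase loading and the helicase, 3 initiation factors, 14 of the polymerases and primase with the single-strand binding protein RPA, 6 of the sliding clamp and its loader, 2 of Okazaki fragment joining, 4 of fork stability and 4 of ribonucleotide reductase. Strand-specific sequencing of total RNA depleted of ribosomal RNA measured their transcripts in 6 libraries, in 3 groups of 2 biological replicates. The groups were cells deleted for GAT1 (gat1Δ) in a medium with glutamine, gat1Δ cells in a medium with proline, and cells deleted for DAL80 (dal80Δ) in a medium with glutamine. Gat1 is known to activate, and Dal80 to repress, genes that let yeast live on a poor nitrogen source such as proline when a preferred one such as glutamine is lacking. The strain background, the concentrations of the nitrogen sources and the growth phase at harvest are not stated in the labels. Every group lacks a GATA factor, and cells with both genes intact were not analysed here, so that the effects of the 2 deletions cannot be told apart.

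Before replication, the origin recognition complex and Cdc6 load the Mcm helicase onto origins. Cdc45 and the GINS complex then turn it into a moving helicase, behind which polymerases copy the strands, helped by a sliding clamp and by RPA. Many genes of this machinery are transcribed in a burst at the passage from G1 into S phase, through the factors MBF and SBF, whose binding motifs are known as MCB and SCB. Ribonucleotide reductase turns ribonucleotides into deoxyribonucleotides, and its supply of these limits DNA synthesis. RNA from a whole culture averages over cells of every phase, so that fewer cells in a phase and less RNA per cell cannot be told apart.

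The libraries held between 17009715 and 34718641 reads over all features, and a single gene of the 50 had between 41 and 23069 reads in a library. All 50 passed the filter on low values, none overlapped another annotated feature, and none held a stretch of 50 bases found elsewhere in the genome. Reads of GAT1 numbered 1603 and 1062 in dal80Δ, and between 2 and 3 in each of the 4 gat1Δ libraries. DAL80 had 1 and 0 reads in dal80Δ, but also only 2 and 1 in gat1Δ glutamine, against 195 and 497 in gat1Δ proline. The 2 strains also differed in the genes that mark mating type, which the labels do not give. The 7 a-specific genes summed to 193 and 171 scaled reads in gat1Δ glutamine. They came to 6517 and 4922 with proline, and to 27468 and 25721 in dal80Δ. The 4 alpha-specific genes summed to 36055 and 36270, 84262 and 89581, and 448 and 433 in the same order. In glutamine this difference lies between the same groups as the deletions, so that the effects of mating type and deletion cannot be told apart. Within gat1Δ both sums were higher with proline than with glutamine, so that mating-type transcripts also differed between the media compared below. The part of mating type in the results below was not tested.

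The promoters of the genes with the 5 largest falls in proline and with the largest rise are shown first. Those of the falls hold an MCB, ACGCGT, and that of POL30 also an SCB, CGCGAAA, both in capitals. Each sequence runs toward the start codon on the gene's own strand and comes from the RefSeq copy of build R64. RNR1 is shown from 500 to 291 bases before its start codon (chr5:298450-298659, plus strand), because all its MCB copies lie there. The other 5 are shown from 250 to 71 bases before the start codon. These are POL30 (chr2:425837-426016, minus strand), RFA1 (chr1:158690-158869, minus strand), POL1 (chr14:429837-430016, plus strand), CDC45 (chr12:346012-346191, minus strand) and PSF2 (chr10:305933-306112, minus strand). PSF2, the gene with the largest rise in proline, is the one shown with neither motif. DPB4 and MCM10, which also rose and are not shown, held neither motif in the window searched. PSF1 and DPB3, also higher and not shown, held no MCB but an SCB, 93 and 76 bases before the start codon.
RNR1: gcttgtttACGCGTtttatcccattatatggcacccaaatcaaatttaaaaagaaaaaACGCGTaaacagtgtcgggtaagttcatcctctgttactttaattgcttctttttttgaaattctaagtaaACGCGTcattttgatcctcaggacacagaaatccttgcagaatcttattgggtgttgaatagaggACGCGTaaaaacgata
POL30: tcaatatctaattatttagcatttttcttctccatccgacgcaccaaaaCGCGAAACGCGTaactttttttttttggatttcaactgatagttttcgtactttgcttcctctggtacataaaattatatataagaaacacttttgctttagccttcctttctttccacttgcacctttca
RFA1: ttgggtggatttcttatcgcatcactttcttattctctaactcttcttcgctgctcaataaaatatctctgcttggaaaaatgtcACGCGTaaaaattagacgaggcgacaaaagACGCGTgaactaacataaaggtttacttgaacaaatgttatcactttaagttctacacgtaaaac
POL1: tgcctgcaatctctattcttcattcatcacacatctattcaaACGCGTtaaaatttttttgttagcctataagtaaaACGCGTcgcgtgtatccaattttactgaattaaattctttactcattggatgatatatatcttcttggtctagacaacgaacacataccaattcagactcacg
CDC45: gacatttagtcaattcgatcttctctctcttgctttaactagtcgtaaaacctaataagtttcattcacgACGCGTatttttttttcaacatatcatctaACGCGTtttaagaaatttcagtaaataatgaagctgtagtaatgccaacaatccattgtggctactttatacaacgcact
PSF2: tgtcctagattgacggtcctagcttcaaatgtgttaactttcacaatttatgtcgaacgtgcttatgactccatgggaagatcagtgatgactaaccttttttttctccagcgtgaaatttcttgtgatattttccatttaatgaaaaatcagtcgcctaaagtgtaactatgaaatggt
RNR1 held 4 copies of ACGCGT, which lay 492, 442, 371 and 306 bases before its start codon. In POL30 the SCB and the MCB share 1 base and form a single run of capitals. RFA1, POL1 and CDC45 each held 2 separate copies of ACGCGT.

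In proline RNR1, the sliding clamp gene POL30 and all 3 RPA genes fell, as did 15 of the 26 genes of polymerases and fork in all. The 20 genes of origin recognition, helicase and initiation had a median close to that of all genes, with PSF2 far above it and CDC45 far below. Log2 fold changes were taken from densities, reads per base scaled by the authors to nearly the same total over genes, plus a pseudocount, and are given with their standard error (SE). A gene was called where limma gave a p under 0.05 after adjustment over the 5594 genes tested. Of the 50, 16 were higher in proline, 18 were lower and 16 did not pass. Over all genes 71.6% were called, 56.5% higher and 15.1% lower. The share called, 68.0% of the 50, lay near this background, whereas 36.0% of the 50 were lower. The median log2 fold change was -0.01 over the 50 and 0.50 over all genes.

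That shift of the median gene makes small changes depend on the scaling. Rescaling by TMM, which assumes that most genes do not change, brought the median gene to 0.06 and the 50 to -0.41. Under TMM 6 of the 50 were higher, 24 were lower and 20 did not pass, against 63.7% of all genes called, 33.9% higher and 29.8% lower. All 18 genes that fell under the deposited scaling also fell under TMM. Of the 16 that were higher, PSF2, DPB4, PSF1, MCM10, ORC3 and SLD3 were also higher under TMM. Proline and glutamine libraries did not overlap for 44 of the 50, 22 in each direction. The same held for 86.5% of all genes, 65.9% higher and 20.6% lower.

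**Figure D1:**
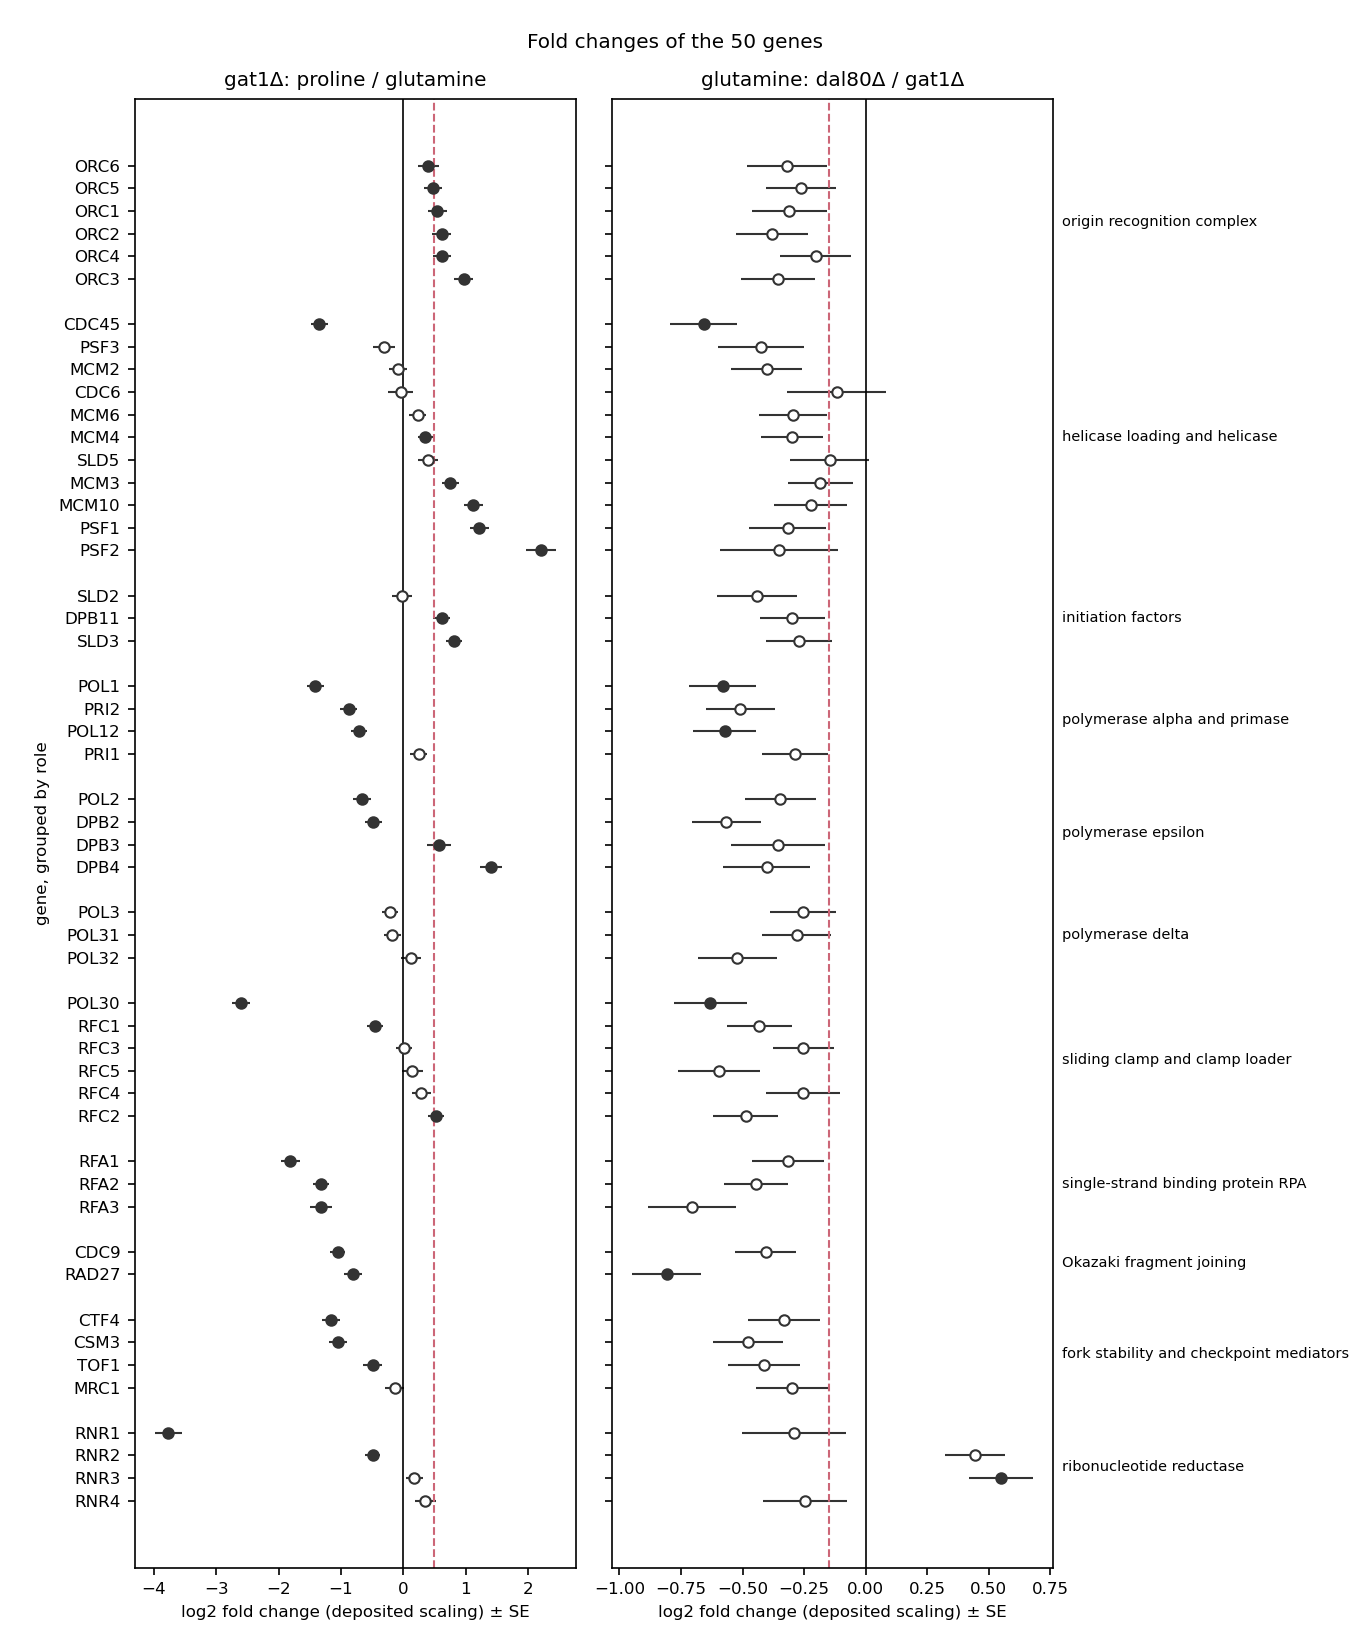
Log2 fold change (± SE) of each of the 50 genes, grouped by role, for proline against glutamine in gat1Δ cells and for dal80Δ against gat1Δ cells in glutamine, with 2 libraries a group. Filled points passed an adjusted p of 0.05 and the red dashed line marks the median of all genes. In proline RNR1, at -3.77, and PSF2, at 2.21, stand at the ends, and in dal80Δ 48 of the 50 genes lie below 0.

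Ribonucleotide reductase held the largest fall. RNR1 (YER070W, chromosome 5, 298950 to 301616), for the main large subunit, stood at 11175 and 12379 scaled reads in gat1Δ glutamine, 617 and 1045 with proline, and 10223 and 9023 in dal80Δ. Both proline libraries lay far below the other 4, at a log2 fold change of -3.77 ± 0.21 (adjusted p = 2.41e-06). It was the 5th largest fall among the 844 genes that were lower in proline.

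The small subunit genes moved less. RNR2 (YJL026W), for the small subunit that carries the radical cofactor, stood at 7244 and 6993 scaled reads in gat1Δ glutamine, 4993 and 5138 with proline, and 9733 and 9638 in dal80Δ. It fell by 0.49 on the log2 scale in proline (SE 0.12, adjusted p = 0.00596), and its 3 groups did not overlap. RNR4 (YGR180C), for the other small subunit, stood at 4010 and 3166, 4834 and 4292, and 2664 and 3376 in the same order. Its log2 fold change in proline was 0.35 ± 0.17 (adjusted p = 0.0902) and did not pass, although its proline libraries lay above both glutamine libraries. Without the first gat1Δ glutamine library it passed, at 0.52. RNR3 (YIL066C), for the minor large subunit that DNA damage is known to induce, stood at 209 and 197, 231 and 245, and 332 and 318. It did not pass in proline, at 0.18 ± 0.13 (adjusted p = 0.241).

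Ratios taken within a library do not depend on the scaling between libraries, and these pairs were chosen after the values were seen. Per base, RNR1 stood at 0.694 and 0.796 times RNR2 in gat1Δ glutamine, at 0.0556 and 0.0915 times with proline, and at 0.473 and 0.421 times in dal80Δ. The mean ratio was 10.1-fold lower in proline than in glutamine. RNR1 was 52.3 and 61.3 times RNR3 per base in gat1Δ glutamine but 2.61 and 4.17 times in proline, and 30.1 and 27.8 times in dal80Δ. RNR4 stood at 0.640 and 0.523 times RNR2 in gat1Δ glutamine, at 1.12 and 0.966 times in proline and at 0.316 and 0.405 times in dal80Δ, so that its proline ratios were the higher. The large subunit's main transcript, RNR1, therefore lay far lower against RNR2 and RNR3 in proline than in glutamine. RNR1 and RNR3 share 81.9% of their translated positions but no identical stretch longer than 38 bases, and RNR2 and RNR4 share 55.1% and no stretch longer than 14. The labels do not say how reads that match several places were counted.

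**Figure D2:**
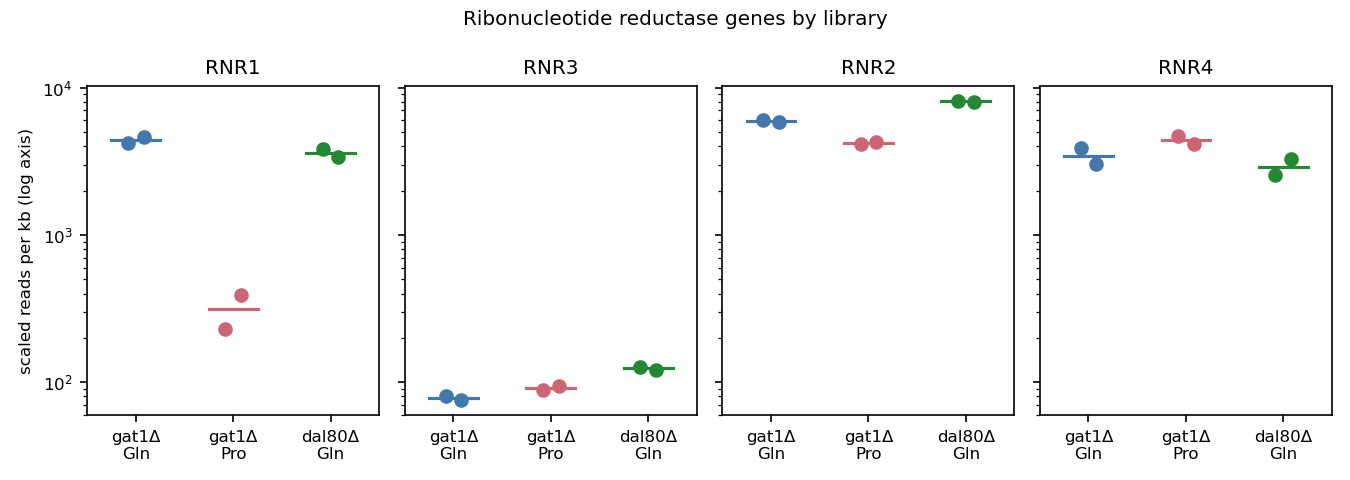
Scaled reads per kilobase (log axis) of the 4 ribonucleotide reductase genes in each of the 6 libraries, as points, with a bar at the mean of 2 libraries. RNR1 averages 4416 in gat1Δ glutamine and 312 with proline, and RNR3 is the lowest of the 4 genes in every group.

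Per length, RNR2 was the highest of the 50 genes in gat1Δ glutamine, at 5932 scaled reads per kilobase, and SLD3 the lowest, at 47.1. The median over the 50 was 216, against 279 for all genes tested. In gat1Δ proline the order of the 4 reductase genes was RNR4, RNR2, RNR1 and RNR3, at 4396, 4221, 312 and 91.2 scaled reads per kilobase. In gat1Δ glutamine it was RNR2, RNR1, RNR4 and RNR3, at 5932, 4416, 3456 and 77.9. In dal80Δ the same order held, at 8071, 3608, 2909 and 125.

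The sliding clamp fell and its loader mostly did not. POL30 (YBR088C), for the clamp PCNA that tethers polymerases to DNA, stood at 921 and 842 scaled reads in gat1Δ glutamine, 114 and 147 in proline and 547 and 579 in dal80Δ. It fell by 2.61 on the log2 scale in proline (SE 0.15, adjusted p = 2.41e-06). RFC1 to RFC5 encode the loader that opens the clamp. RFC1 fell by 0.45 (adjusted p = 0.0123), a call lost without the first gat1Δ glutamine or the second gat1Δ proline library. RFC2 was higher by 0.52 (adjusted p = 0.00617), a call lost under TMM, at 0.05. RFC3, RFC4 and RFC5 lay between 0.01 and 0.29 and did not pass, and RFC3 was lower under TMM, at -0.46. Per base, POL30 stood at 3.83 and 3.79 times the mean of its 5 loader genes in gat1Δ glutamine, at 0.456 and 0.589 times in proline and at 3.31 and 3.29 times in dal80Δ.

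All 3 RPA genes, whose product coats single-stranded DNA, fell under both scalings. RFA1 (YAR007C) stood at 833 and 856 scaled reads in gat1Δ glutamine, 187 and 235 in proline and 716 and 628 in dal80Δ. Its log2 fold change in proline was -1.81 ± 0.15 (adjusted p = 1.54e-05). RFA2 stood at 830 and 779, 298 and 323, and 553 and 618, and fell by 1.32. RFA3 stood at 443 and 313, 145 and 144, and 204 and 248, and also fell by 1.32. The proline libraries lay below all glutamine libraries in each of the 3 genes.

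Among the polymerases, subunits of the same enzyme did not move alike. POL1 (YNL102W), for the catalytic subunit of polymerase alpha, which starts each new strand with primase, stood at 1023 and 1001 scaled reads in gat1Δ glutamine, 346 and 289 in proline and 658 and 629 in dal80Δ. It fell by 1.41 on the log2 scale in proline (adjusted p = 3.6e-05). The regulatory subunit gene POL12 fell by 0.71 and the large primase subunit gene PRI2 by 0.88, while PRI1, for the small primase subunit, did not pass at 0.25. The ratio of POL1 to PRI1 per base was 3.85-fold lower in proline.

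Of polymerase epsilon, which copies the leading strand, POL2 for the catalytic subunit fell by 0.66 and the essential subunit gene DPB2 by 0.48. The DPB2 call was lost without the second library of either gat1Δ group. DPB4, for a small histone-fold subunit, stood at 157 and 147 scaled reads in gat1Δ glutamine, 506 and 355 in proline and 120 and 104 in dal80Δ. It rose by a log2 fold change of 1.40 ± 0.18 (adjusted p = 0.000143), and both proline libraries lay above all others. DPB3, its histone-fold partner, was higher by 0.57 (adjusted p = 0.0241), but not under TMM, at 0.15, nor without the second library of either gat1Δ group. The ratio of DPB4 to POL2 per base was 4.74-fold higher in proline. The polymerase delta genes POL3, POL31 and POL32, which serve the lagging strand, lay between -0.22 and 0.12 and did not pass, while POL3 and POL31 were lower under TMM, at -0.66 and -0.62. POL3, for the catalytic subunit, stood at 685 and 776 scaled reads in gat1Δ glutamine, 629 and 606 in proline and 623 and 577 in dal80Δ.

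Genes for joining Okazaki fragments and for fork stability lay on the falling side. CDC9, for DNA ligase, stood at 760 and 764 scaled reads in gat1Δ glutamine, 337 and 343 in proline and 558 and 566 in dal80Δ, and fell by 1.05 on the log2 scale (adjusted p = 9.97e-05). RAD27, for the flap nuclease that trims fragment ends, stood at 355 and 314, 195 and 164, and 176 and 183, and fell by 0.81. Both genes were lower in both proline libraries than in either gat1Δ glutamine library. CTF4, which links helicase and polymerase alpha, stood at 520 and 435, 163 and 194, and 353 and 377, and fell by 1.16. CSM3 fell by 1.05 and its partner in fork protection TOF1 by 0.49, the latter not without the second gat1Δ proline library. MRC1, the mediator of the replication checkpoint, did not pass at -0.14 but was lower under TMM, at -0.51.

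**Figure D3:**
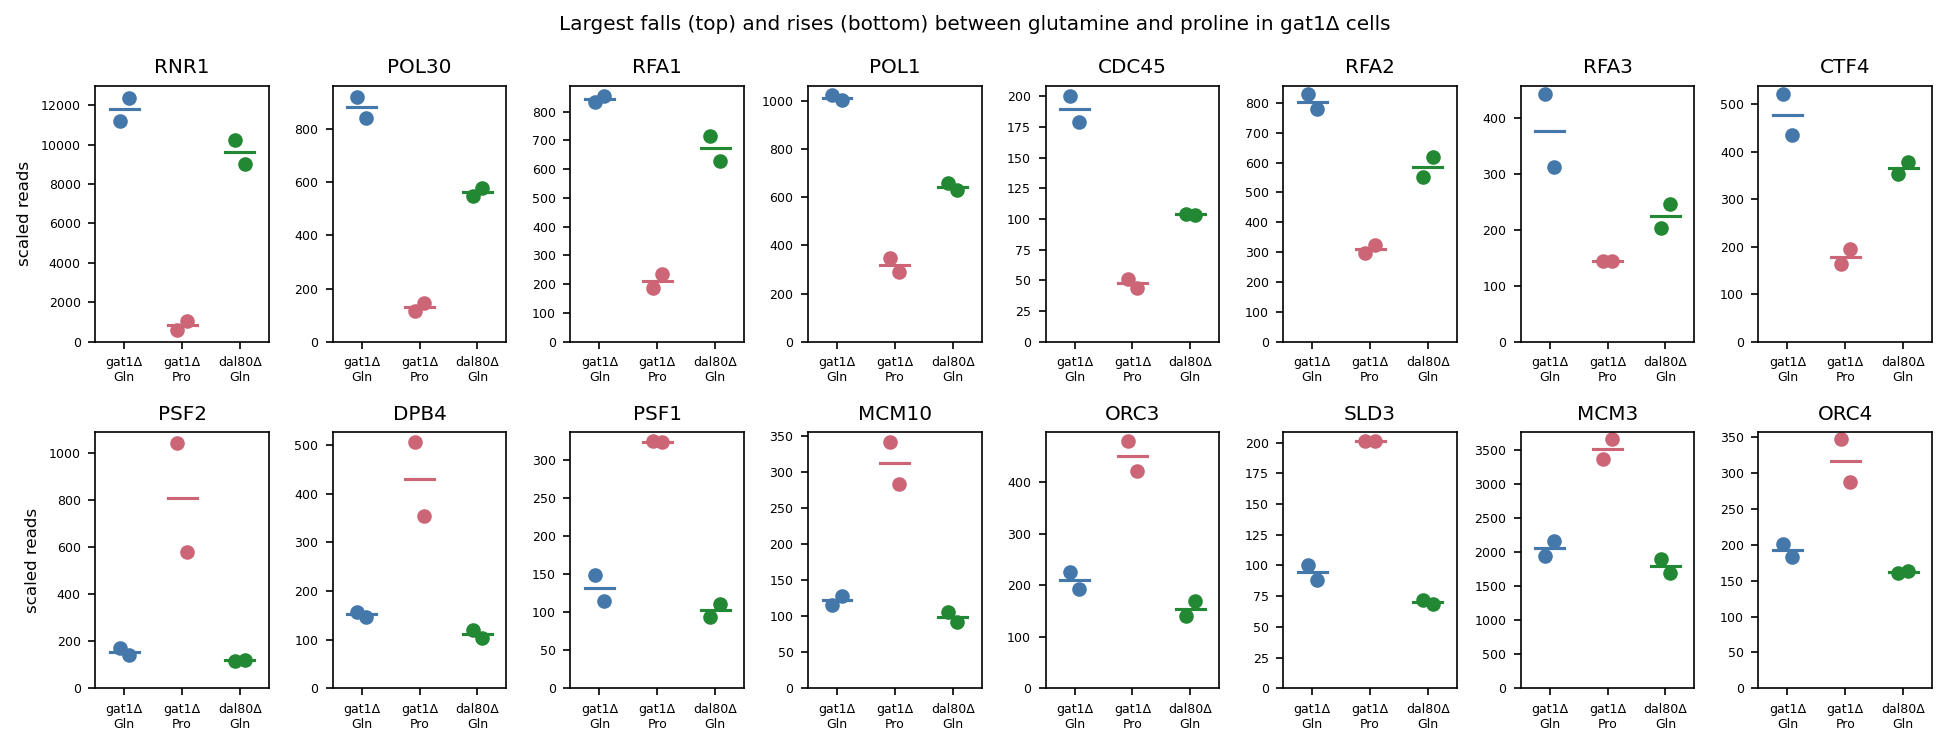
Scaled reads in each library of the 8 genes with the largest called falls in proline (top) and the 8 with the largest called rises (bottom), with both libraries of each group shown as points. Both proline libraries lie on one side of both gat1Δ glutamine libraries in all 16 genes, as the choice of genes required.

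All 6 origin recognition genes were higher in proline under the deposited scaling, as were 56.5% of all genes. Their log2 fold changes lay between 0.40 for ORC6 and 0.97 for ORC3. The median of the 6 was 0.58, near the 0.50 of all genes, and ORC5 and ORC6 lay below 0.50. ORC3, for a core subunit, stood at 227 and 193 scaled reads in gat1Δ glutamine, 480 and 422 in proline and 140 and 171 in dal80Δ. ORC4, for another subunit of the same ring, stood at 201 and 183, 347 and 287, and 161 and 163. Proline libraries lay above all glutamine libraries in all 6 genes. Over all genes 65.9% were higher in proline than in gat1Δ glutamine without overlap. Under TMM ORC3 alone remained higher, at 0.52 (adjusted p = 0.00671), and ORC5 and ORC6 lay at 0.01. Without the second gat1Δ glutamine library the calls of ORC5 and ORC6 were lost, and without the first proline library those of ORC1, ORC5 and ORC6. The ORC6 call was lost in 5 of the 6 fits that left out a library, all but that without the first gat1Δ glutamine library.

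The helicase genes went both ways. CDC45 (YLR103C), for the factor that completes the moving helicase, stood at 200 and 179 scaled reads in gat1Δ glutamine, 51 and 44.1 in proline and 104 and 104 in dal80Δ. It fell by 1.35 on the log2 scale in proline (adjusted p = 4.44e-05). On whole reads edgeR and DESeq2 gave -2.51 and -2.56. Its proline mean, 24.3 scaled reads per kilobase, lay close to the pseudocount, which understates its fall. Its partners in the helicase, the 4 GINS genes, were not alike. PSF2 (YJL072C) stood at 171 and 142, 1042 and 580, and 117 and 121, and rose by 2.21 ± 0.24 (adjusted p = 6.37e-05). PSF1 stood at 149 and 115, 325 and 323, and 93.9 and 112, and rose by 1.22. SLD5 did not pass at 0.39 (adjusted p = 0.051), except without the second proline library, at 0.59. PSF3 did not pass at -0.31, but was lower under TMM, at -0.76, and without the second gat1Δ glutamine library, at -0.50. The 4 transcripts stood within 1.51-fold of each other per length in gat1Δ glutamine and within 1.22-fold in dal80Δ, but spread over 6.11-fold in proline.

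Of the ring genes of the Mcm helicase, MCM3 stood at 1944 and 2158 scaled reads in gat1Δ glutamine, 3367 and 3654 in proline and 1899 and 1696 in dal80Δ. It was higher in proline by 0.76 (adjusted p = 0.00086), but not under TMM, at 0.27. MCM4 was higher by 0.35 (adjusted p = 0.03), lay at -0.13 under TMM, and was not called in 5 of the 6 fits that left out a library. MCM6 did not pass at 0.23, and MCM2 did not pass at -0.08 but was lower under TMM, at -0.54. Per base, MCM3 stood at 2.11 and 2.51 times MCM2 in gat1Δ glutamine and at 4.39 and 3.98 times in proline. MCM10, which helps the helicase to start, stood at 116 and 128 scaled reads in gat1Δ glutamine, 343 and 284 in proline and 106 and 91.9 in dal80Δ, and rose by 1.12 (adjusted p = 0.000173). CDC6, for the loader, had proline libraries of 188 and 314 on either side of its gat1Δ glutamine libraries of 242 and 263, and did not pass at -0.04.

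Of the initiation factors, SLD3 and DPB11 were higher and SLD2 was not called. SLD3, which brings Cdc45 to origins, stood at 101 and 88.4 scaled reads in gat1Δ glutamine, 201 and 202 in proline and 72.2 and 68.5 in dal80Δ, and rose by 0.82 (adjusted p = 0.000576). DPB11, which Sld2 and Sld3 bind, was higher by 0.61, but not under TMM, at 0.18. Over the 20 genes of origin recognition, helicase and initiation, 13 were higher (65.0%, against 56.5% of all genes) and 1 was lower, with a median log2 fold change of 0.51 that lay at the 0.50 of all genes. Over the 26 genes of polymerases and fork, 3 were higher and 15 lower (57.7%, against 15.1% of all genes), with a median of -0.49. Under TMM 5 of the 20 were higher (25%, against 33.9% of all genes) and 3 lower, at a median of 0.08. Of the 26, 1 was higher and 19 lower (73.1%, against 29.8%), at -0.91. These groupings of roles were chosen with the values known.

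ACGCGT was found in 23 of the 50 promoters (46.0%), searched on both strands from 250 bases before to 50 after the start codon. The share over the 5772 nuclear genes was 3.17%. The 31 copies lay between 72 and 222 bases before the start codon, with a median of 142. CGCGAAA was found in 6 of the 50 (12%, against 3.67%), namely POL30, DPB3, CDC9, PSF1, POL32 and DPB2. GATAAG, a motif bound by GATA factors, was found in 4 of the 50 (8%, against 14.8%), namely RFA1, MRC1, SLD5 and ORC1. MCB copies were in all 3 polymerase delta promoters, all 4 of fork stability and both of Okazaki fragment joining, and in none of the 6 of origin recognition. Of the reductase genes only RNR3 held one in this window, and RNR1 held its 4 further upstream, within 500 bases of the start codon. In that longer stretch ORC6 and DPB2 also held a copy, 445 and 416 bases before the start codon. Under the deposited scaling ORC6 was called higher in proline and DPB2 lower. A match is a string of letters and does not show that a factor binds there.

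Genes with and without the motif differed in their values in proline. Of the 23 with ACGCGT none was higher, 14 were lower (60.9%, against 15.1% of all genes) and 9 did not pass, with a median log2 fold change of -0.66. Of the 27 without it 16 were higher (59.3%, against 56.5% of all genes), 4 were lower (14.8%, against 15.1%) and 7 did not pass, with a median of 0.47. These shares lay at the background. The 4 were RNR1, RFA3, RNR2 and RFC1. The 15 promoters with 1 copy had a median of -0.31, with 7 lower, and the 8 with 2 copies had a median of -1.06, with 7 lower and MRC1 not called. Under TMM the medians were 0.01 with no copy, -0.76 with 1 copy and -1.44 with 2 copies. The split by copies was chosen with earlier results known and was not tested.

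**Figure D4:**
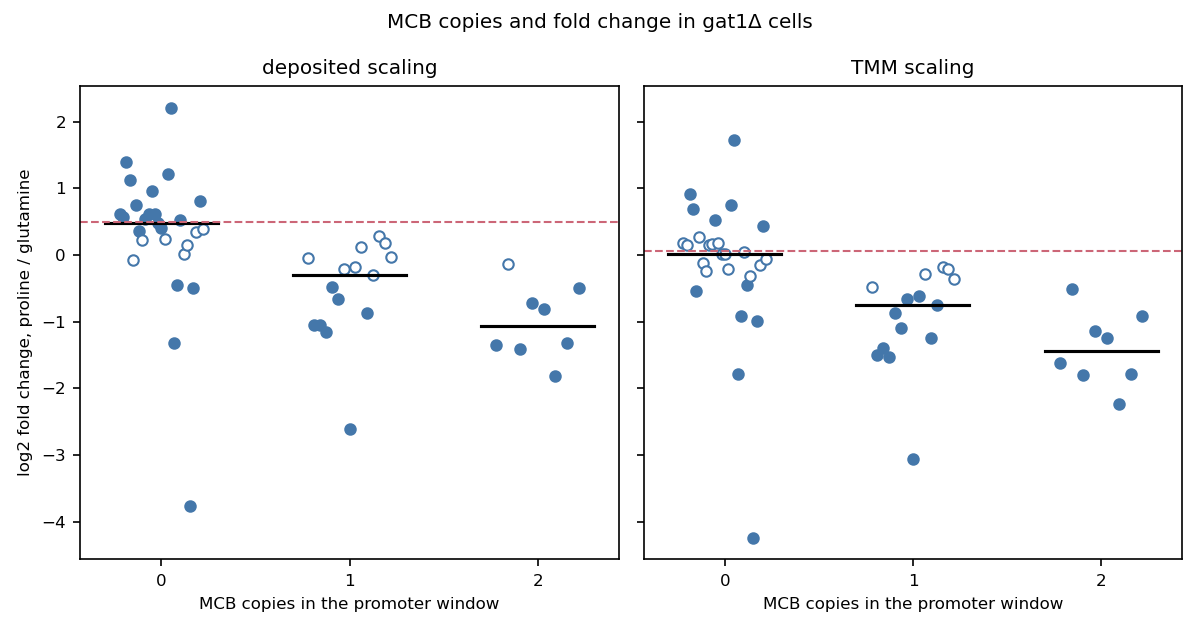
Log2 fold change in proline of the 50 genes by the number of ACGCGT copies in the 300-base promoter window (27 genes with 0 copies, 15 with 1 and 8 with 2), under the deposited and the TMM scaling. Filled points passed an adjusted p of 0.05, and no gene with a copy was called higher under either scaling.

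Genes with related roles were read from the same fit. Of 24 other replication genes 14 were higher (58.3%) and 6 lower in proline, or 8 (33.3%) and 7 (29.2%) under TMM. Over all genes 56.5% were higher and 15.1% lower, or 33.9% and 29.8% under TMM. The shares of the 24 that were higher lay near those of all genes under both scalings. The topoisomerase gene TOP1 was higher by 1.29, SLD7, whose product partners Sld3, was higher by 1.14, and CTF18, of an alternative clamp loader, was lower by a log2 fold change of -1.14. RNH201, for a ribonuclease H subunit, was lower at -1.18. The remaining helicase ring genes MCM5 and MCM7 were higher by 0.58 and 0.80. Under TMM MCM5 did not pass, at 0.11 (adjusted p = 0.432), and MCM7 lay at 0.32 (adjusted p = 0.0467). Of 18 genes of nucleotide supply and reductase control 6 were higher (33.3%) and 7 lower (38.9%), or 5 (27.8%) and 9 (50.0%) under TMM. CDC21, for thymidylate synthase, was lower at -2.11 and the kinase gene YNK1 at -1.65, whereas DFR1, for dihydrofolate reductase, was higher at 1.94. Of 12 regulators of G1/S transcription 5 were higher (41.7%) and 3 lower, or 1 (8.33%) and 5 (41.7%) under TMM. Under the deposited scaling the repressor gene YOX1 lay at -2.36, the corepressor gene NRM1 at -1.06 and the cyclin gene CLN3 at 1.43.

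Transcripts that peak at other points of the cell cycle were read beside them. Of 26 other G1/S transcripts none was higher and 20 were lower in proline (76.9%, against 15.1% of all genes), with a median of -1.37. Under TMM 25 were lower (96.2%, against 29.8%). The cyclin gene CLN2 lay at -2.63, TOS4 at -2.72 and CSI2 at -2.46. Of 8 core histone genes, which are known to be expressed in S phase, 7 were lower (87.5%), with HTB2 at -2.57, HTA2 at -2.61 and HHF1 at -1.87. They include near-identical copies whose reads cannot be assigned with certainty. Of 16 G2/M transcripts 3 were higher and 4 lower, or 2 and 8 under TMM. Among them CDC20, for an activator of the anaphase-promoting complex, lay at 2.02, the kinase gene DBF2 at 0.80, CHS2, for a septum chitin synthase, at -1.08 and the cyclin gene CLB1 at -1.11. Of 14 M/G1 transcripts 12 were higher (85.7%, against 56.5% of all genes) and none lower, at a median of 1.33. Under TMM 9 were higher (64.3%, against 33.9%). The daughter cell genes DSE3, DSE1 and AMN1 lay at 1.60, 1.62 and 1.32 under the deposited scaling. The part of the cell cycle in the changes of the 50 genes was not tested.

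In glutamine, dal80Δ cells had slightly lower levels of most of the 50 genes than gat1Δ cells, and few passed. This comparison shares the gat1Δ glutamine libraries with the first. RNR3 was called higher and RAD27, CDC45, POL30, POL1 and POL12 were called lower, and the other 44 did not pass. Over all genes 5.45% were called, 3.97% higher and 1.48% lower. The median log2 fold change was -0.34 over the 50 and -0.15 over all genes. Of the 50, 48 lay below 0 and 46 below the median gene, under the deposited and the TMM scaling for the latter count. Libraries did not overlap for 49 of the 50, 47 of them lower in dal80Δ, where 63.9% of all genes did not overlap and 46.4% were lower without overlap.

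The falls that passed were small. RAD27 fell by 0.81 (SE 0.14, adjusted p = 0.0132) and CDC45 by 0.66 (SE 0.14, adjusted p = 0.028). POL30 fell by 0.63 and POL1 by 0.58 (adjusted p = 0.0432 for each), and POL12 by 0.57 (adjusted p = 0.0366), from 426 and 421 to 275 and 262 scaled reads, with 241 and 237 in proline. Under TMM, RAD27 (adjusted p = 0.00868) and CDC45 (adjusted p = 0.0235) were lower and RNR2 and RNR3 higher, where 7.06% of all genes were called, 6.15% higher and 0.912% lower. There POL1, POL12 and POL30 had adjusted p of 0.0533, 0.0508 and 0.1. All 5 genes called lower under the deposited scaling held an MCB in the window, as did RNR3, which was called higher, and 46.0% of the 50. Of the 23 genes with the motif, 5 were lower (21.7%, against 1.48% of all genes) and 17 were not called in this comparison. Under TMM 2 of the 23 were lower (8.70%, against 0.912%).

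RNR3 rose by 0.55 (SE 0.13, adjusted p = 0.0455), or 0.69 under TMM (adjusted p = 0.0074). RNR2 did not pass under the deposited scaling, at 0.44 (adjusted p = 0.0706), and passed under TMM, at 0.60 (adjusted p = 0.0373). RNR1 lay at -0.29 (adjusted p = 0.376) and RNR4 at -0.25 (adjusted p = 0.349), and neither passed. The smallest adjusted p of the other roles was 0.142 for ORC2, 0.129 for SLD2, 0.0537 for DPB2, 0.0929 for POL32, 0.0576 for RFA3 and 0.085 for CSM3. ORC2 stood at 281 and 232 scaled reads in gat1Δ glutamine, 444 and 385 in proline and 179 and 194 in dal80Δ. SLD2 stood at 81.4 and 56.2, 61 and 71.7, and 43.9 and 39.8 in that order. DPB2 stood at 249 and 274, 189 and 159, and 167 and 156. Both dal80Δ libraries lay below both gat1Δ glutamine libraries in these 3 genes. POL32 stood at 102 and 80.7, 91 and 110, and 50.1 and 62.1. CSM3 stood at 118 and 122, 41 and 53.3, and 79.3 and 80.7. The dal80Δ libraries were again the lower in both genes, when set against gat1Δ glutamine. None of the 6 calls stood in every fit that left out a library. Without the first gat1Δ glutamine library, or either dal80Δ library, none of the 50 was called in limma's test, and between 12 and 17 had an unadjusted p under 0.05. Without the second gat1Δ glutamine library RAD27, CDC45 and RFA3 were lower and none was higher, and without either proline library 7 were lower and RNR3 was higher.

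The related genes also showed few calls. Among other G1/S transcripts 4 of 26 were lower in dal80Δ (15.4%, against 1.48% of all genes), or 2 under TMM (7.69%, against 0.912%). The 4, under the deposited scaling, were CLB6, SPC42, SMC3 and TOS4. The count was 0 without the first gat1Δ glutamine library or either dal80Δ library, and 9 without either proline library. The cyclin gene CLN3 was higher by 0.59 (adjusted p = 0.0369), a call lost without any one of the 4 glutamine libraries. DCD1, for a deoxycytidylate deaminase, was lower at -0.59 (adjusted p = 0.0474), a call that was also lost without any one of these 4. In limma's test none of the 24 other replication genes, 16 G2/M and 14 M/G1 transcripts, 8 core histone genes and 9 DNA damage induced genes was called. Of these lists 8, 4, 3, 6 and 2 genes had an unadjusted p under 0.05. On the whole reads edgeR and DESeq2 each called CTF18, and DESeq2 also called the M/G1 transcripts CTS1 and DSE2.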

How the data were processed

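Total RNA was extracted with hot phenol, depleted of ribosomal RNA and made into strand-specific libraries, read as pairs of 50 nt on an Illumina HiSeq, per the labels' protocols. TopHat and build R64 are named in the submitters' processing notes. The labels do not name the counting program or say how strand and reads matching several places were handled.

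Per the file headers, the deposited table gives each feature's normalized density signal and read count in every library. The authors had scaled the deposited read counts to a gene total that is nearly equal in all libraries (11822090 in the first gat1Δ proline library, whose counts were whole), and the density signal is the scaled count per base. Dividing by each library's scaling step gave whole reads, to within 0.01, for 100% of the values above 0. The table's 6 columns for whole groups were left out. Samples were grouped by their titles, and the labels call the replicates biological. Replicates differed by more than sampling noise (chi-square per degree of freedom of 42.0 to 71.6), with Pearson r of 0.988 to 0.995 across genes. Genes took 66.9% to 78.1% of reads. Read numbers without molecular identifiers cover counting error only.

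A gene was tested if 2 or more libraries gave it 10 or more scaled reads. The test was limma (version 3.58.1, under R 4.3.3), on log2(density + 0.0229). This pseudocount is the 5th percentile of genes' positive densities and understates changes of low genes. Ranks by log2 fold change therefore depend in part on a gene's level. All 6 libraries entered 1 fit with group as the only factor (3 residual degrees of freedom), with an intensity trend. Each contrast's p-values received the Benjamini-Hochberg adjustment over its 5594 genes. The fit was run on simulated data in which few genes changed, equally up and down. That run does not cover a shift like that of the median gene in proline. The alternatives were no filter, a pseudocount 10 times larger, scaling by TMM, RLE or snoRNA totals, edgeR 4.0.16 and DESeq2 1.42.0 on the recovered reads, an adjusted p of 0.01, the replicate number as a block, each library left out, and other motif windows and cores. The window of 500 bases was added after the data were seen.

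All 50 genes have the same coordinates in the RefSeq R64 annotation, from which promoters were read. The members, the roles and the lists of related genes were chosen with earlier results of these data known. By the rule for named genes, values in every library are given for the reductase genes, the 8 largest called falls and rises per comparison without overlap between groups, and the gene with the smallest adjusted p in each role, and fold changes for up to 3 genes of a related list plus its largest opposite change. MCM5, MCM7, SPC42, SMC3, TOS4 and the ratios within a library were named outside this rule, after their values were seen. A gene of the related lists that the rule would name is not reported here.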

Additional observations from a re-analysis of the deposited data

How the results depend on the processing

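The 18 falls in proline passed under every other scaling and tool, and 15 to 18 genes were lower when a library was left out. The 16 rises depended on the scaling, with 6 under TMM, RLE and snoRNA scaling, edgeR and DESeq2, and 12 to 16 when a library was left out. In proline ORC5 and ORC6 lay at -0.038 and -0.027 under RLE, and at -0.043 and -0.038 in DESeq2. MCM4 lay at -0.13 under TMM and in edgeR, -0.18 under RLE and -0.19 in DESeq2. RFC3 lay at -0.46 under TMM, -0.50 under RLE and in edgeR, and -0.55 in DESeq2. The causes were not tested. Of all genes, 4006 were called in proline, 2465 under snoRNA scaling, and 3441 to 3907 when a library was left out. In dal80Δ the 1 gene called higher became 2 under TMM, RLE, edgeR and DESeq2, 0 under snoRNA scaling and at an adjusted p of 0.01, and 0 to 1 when a library was left out. The 5 called lower became 3 without the filter, under RLE and in DESeq2, 2 under TMM, 1 under snoRNA scaling, 0 at an adjusted p of 0.01, and 0 to 7 when a library was left out. Of all genes, 305 were called in dal80Δ, 142 under snoRNA scaling, 520 in DESeq2, 115 at an adjusted p of 0.01, and 111 to 405 when a library was left out. With 5-base cores, ACGCG was found in 70.0% of the 50 promoters (14.3% of all) and CGCGA in 38.0% (15.4%). With a window of 500 bases, chosen after seeing the data, ACGCGT was found in 50.0% (5.61% of all).

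Replicate numbers did not pair the samples, with correlations of 0.01, -0.25 and -0.08 between deviations of same-numbered libraries. With the replicate number as a block, 17 of the 50 were higher and 18 lower in proline, and 0 higher and 2 lower in dal80Δ.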

Other observations

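Genes known to be induced by DNA damage did not move together in proline. Of 9 such genes 3 were higher and 3 were lower (33.3% each, against 56.5% and 15.1% of all genes). Under TMM 2 were higher and 5 lower (22.2% and 55.6%, against 33.9% and 29.8%). RAD2, for a repair nuclease, was higher at a log2 fold change of 1.44, and DUN1, for a checkpoint kinase that controls ribonucleotide reductase, was lower at -1.70.

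ACGCGT also occurs in promoters of genes outside the 50. Of the 155 such genes tested, 58 were higher (37.4%, against 56.5% of all genes) and 45 lower (29.0%, against 15.1%) in proline. Their median log2 fold change was 0.15, against 0.50 over all genes. Under TMM 29 were higher (18.7%, against 33.9%) and 72 lower (46.5%, against 29.8%), with a median of -0.30. In dal80Δ 2 were higher (1.29%, against 3.97%) and 4 lower (2.58%, against 1.48%).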
